A study of Mus musculus with 96 samples.

Results

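The genes described here are 6 members of the S100 family that are not part of the granule programme of neutrophils: S100a1, S100a4, S100a6, S100a10, S100a11 and S100a13. They were taken by name from a table of 23955 genes, in which 17 genes carried an S100 name, and were followed over all 96 cells of the series. Each cell was a single c-Kit-selected splenocyte from 1 of 2 moribund mice with acute myeloid leukemia, 48 cells per mouse, and both mice carried Flt3ITD/ITD, Dnmt3afl/- and MxCre. Flt3ITD is an activating internal duplication of Flt3, a cytokine receptor of blood progenitors with kinase activity, Dnmt3a is a DNA methyltransferase carried here as 1 floxed and 1 null allele, and MxCre is a recombinase under the interferon-responsive Mx promoter. The labels name no inducer of MxCre. Splenocytes of other genotypes were not analysed here, and the values therefore show no effect of Flt3 or Dnmt3a, although loss of Dnmt3a function is what the study set out to follow, and the comparisons are among cells of these leukemias.

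S100 proteins are small calcium-binding proteins with a pair of EF-hand motifs. Most form dimers, open a hydrophobic face when calcium binds, and then attach to targets such as annexins and cytoskeletal proteins. S100a10 is the exception that no longer binds calcium and is held in a constant complex with annexin A2. In myeloid cells S100a8 and S100a9 form calprotectin, an abundant protein of neutrophils and monocytes, whereas the 6 genes described here are expressed in many cell types.

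All 6 genes are protein-coding and lie on chromosome 3 in the GRCm38.p6 RefSeq annotation. S100a1 (chr3:90511034-90514330, minus strand) and S100a13 (chr3:90514233-90524581, plus strand) run away from each other and share 98 bases, so reads in the overlap could count for either gene and their values carry that uncertainty. S100a4 (chr3:90603770-90606045) and S100a6 (chr3:90612894-90614414) are neighbours with 6848 bases between them. S100a11 (chr3:93520496-93526288) and S100a10 (chr3:93555117-93564645) lie further along, 2906081 bases beyond S100a6, with 28828 bases between them.

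The promoter windows of S100a4 and S100a11 are shown because these genes had opposite patterns across the cell states, and those of S100a1 and S100a13 because they overlap. Each holds the 250 bases before and the 50 bases after a RefSeq start site on GRCm38.p6, and 5 of the 6 genes matched the promoter table. For S100a4 (chr3:90603520-90603819, plus strand) and S100a11 (chr3:93520246-93520545, plus strand) the capitals mark matches to the motifs searched. For S100a1 (chr3:90514281-90514580, minus strand) and S100a13 (chr3:90514185-90514484, plus strand) the capitals mark the 204 bases that both windows hold, read on opposite strands. The S100a13 window was set on a start site inside the gene, downstream of the first base at 90514233 given above. A transcript from that site would not hold the 98 bases that the S100a1 and S100a13 genes share. The other windows shown were set on the first base of their gene.
S100a4: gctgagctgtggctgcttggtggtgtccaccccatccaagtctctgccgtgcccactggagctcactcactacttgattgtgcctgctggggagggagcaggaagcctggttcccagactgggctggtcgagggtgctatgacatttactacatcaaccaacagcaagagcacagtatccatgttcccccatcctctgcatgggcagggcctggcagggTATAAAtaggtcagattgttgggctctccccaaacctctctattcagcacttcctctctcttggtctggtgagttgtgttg
S100a11: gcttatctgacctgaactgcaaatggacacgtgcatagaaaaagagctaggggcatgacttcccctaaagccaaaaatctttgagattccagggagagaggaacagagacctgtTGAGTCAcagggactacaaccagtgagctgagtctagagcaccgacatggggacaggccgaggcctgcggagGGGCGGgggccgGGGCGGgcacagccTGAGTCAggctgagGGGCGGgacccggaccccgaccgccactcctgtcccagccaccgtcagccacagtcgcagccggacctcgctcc
S100a1: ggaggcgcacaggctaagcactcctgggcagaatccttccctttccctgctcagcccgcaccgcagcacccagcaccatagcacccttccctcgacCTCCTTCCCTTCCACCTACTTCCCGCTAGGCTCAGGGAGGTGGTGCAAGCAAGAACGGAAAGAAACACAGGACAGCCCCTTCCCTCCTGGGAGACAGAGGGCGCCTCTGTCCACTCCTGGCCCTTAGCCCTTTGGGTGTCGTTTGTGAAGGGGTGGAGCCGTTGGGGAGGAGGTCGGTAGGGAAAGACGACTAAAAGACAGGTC
S100a13: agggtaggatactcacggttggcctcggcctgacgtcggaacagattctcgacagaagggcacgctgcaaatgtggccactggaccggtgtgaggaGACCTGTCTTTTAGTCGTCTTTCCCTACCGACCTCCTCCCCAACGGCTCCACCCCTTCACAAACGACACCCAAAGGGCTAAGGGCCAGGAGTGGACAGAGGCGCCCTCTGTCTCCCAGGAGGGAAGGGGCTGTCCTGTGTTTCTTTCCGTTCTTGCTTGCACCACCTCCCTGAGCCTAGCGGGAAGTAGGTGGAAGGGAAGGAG

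In all, 4 motifs were searched on both strands, and no matches overlapped: the TATA box TATAAA, the GC box GGGCGG, the AP-1 motif TGANTCA and the STAT motif TTCNNNGAA. The S100a4 window held 1 TATA box, beginning 31 bases before the start site, a motif found in 13.6% of 32851 mouse promoter windows of the same length. The S100a11 window held 3 GC boxes, beginning 64, 52 and 24 bases before the start, and 2 AP-1 matches, beginning 136 and 38 bases before it. GC boxes were in 35.7% of all windows, AP-1 matches in 7.81% and STAT matches in 8.30%. No motif matched in the windows of S100a1, S100a6 and S100a13, which says only that these letters were not there. GC content was 61.7% in the S100a11 window and 55.3% in that of S100a4, against a median of 52.7% over all windows.

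Values were TPM (transcripts scaled to the same total in each cell), which the authors made with RSEM and which allow for gene length, so levels of different genes can be set side by side. Cells were placed in states by a threshold of 1000 TPM: class II-high cells by H2-Aa, a major histocompatibility complex class II chain; then S100a8-high cells; then Mpo-high cells by the myeloperoxidase gene of granulocyte-monocyte progenitors; and the rest. Mouse 1 had 14 class II-high, 1 S100a8-high, 13 Mpo-high and 20 rest cells, and mouse 2 had 20, 10, 12 and 6. The marker lists were read without the gene that sets the state. Of 9 other markers of the conventional type 1 dendritic cell, 8 in mouse 1 and 7 in mouse 2 reached 10 TPM in at least as many class II-high cells as lacked it, and Xcr1, a chemokine receptor of that cell type, reached it in 14 of 14 and 20 of 20. All 7 other neutrophil markers did so in the S100a8-high cells of mouse 2, and all 5 other markers of granulocyte-monocyte progenitors in the Mpo-high cells of both mice, where they summed to medians of 6303 and 6353 TPM. The 1 S100a8-high cell of mouse 1 went against that name: it had 34099 TPM of Mpo, 1251 TPM of S100a8 and S100a9 listed at 0. It was 1 of 4 cells past more than 1 threshold, which are named where they bear on a value.

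Read depth was unknown, because TPM keeps none. Detected genes, those at 1 TPM or more in a cell, were counted instead, and their median was 2922 in mouse 1 and 2581 in mouse 2 in class II-high cells, and 4463 and 4041 in Mpo-high cells, so these states differed in detected genes as well. Over the 48 cells of a mouse, Spearman's rho between a gene and the number of detected genes was 0.56 and 0.58 for S100a4, 0.19 and 0.62 for S100a10, and -0.32 and -0.57 for S100a11 in mouse 1 and mouse 2. Actb, Gapdh and the other housekeeping genes looked at were at 0 in no cell, except Hprt, which was at 0 in 11. Several came close to it, with lowest values of 1.54 TPM for Rplp0, 3.96 for Gapdh, 4.16 for Ptma, 6.77 for Tmsb4x and 7.27 for Eef1a1. The lowest values were 30.54 TPM for Ppia, 59.45 for Rps18, 627.84 for B2m and 3776 for Actb. Cells of 1 animal are not replicates, so no test or p-value is given, SDs are over cells, and the column prefix divided the cells just as mouse did, so that they cannot be told apart. The protocol describes separate captures, which the labels do not tie to a mouse.

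S100a11, a partner of annexin A1, was by mean TPM the most abundant of the 6 genes in every state of both mice and was highest in class II-high and S100a8-high cells. In class II-high cells it ranged from 760.28 to 6097 TPM in mouse 1 (median 2787, n = 14) and from 612.67 to 5610 TPM in mouse 2 (median 1998, n = 20). In Mpo-high cells the range was 75.76 to 2080 TPM (median 911.99, n = 13) and 101.26 to 2515 TPM (median 831, n = 12). The ranges overlapped, but the lowest class II-high cell of each mouse lay above the lower quartile of its Mpo-high cells. As means of log2(TPM + 1), class II-high cells had 11.41 ± 0.75 and Mpo-high cells 9.58 ± 1.34 (SD over cells) in mouse 1, a difference of 1.82. In mouse 2 the means were 10.83 ± 0.80 and 9.27 ± 1.32, a difference of 1.55. The 10 S100a8-high cells of mouse 2 ranged from 1254.87 to 14136 TPM (median 2805), 2.27 above Mpo-high cells of the same mouse. Rest cells, at a median of 885.77 and 1037 TPM, lay near the Mpo-high cells, with rest minus Mpo-high differences of -0.42 in mouse 1 and 0.49 in mouse 2.

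S100a11 was detected at 10 TPM in 47 of 48 cells of mouse 1 and 48 of 48 of mouse 2. The exception was a rest cell in which S100a1, S100a4, S100a6, S100a10 and S100a11 were all listed at 0 and S100a13 stood at 0.89 TPM. That cell had 2816 detected genes, 4826 TPM of Actb and 664.91 TPM of the globin gene Hbb-bt. Without any 1 cell, the class II-high minus Mpo-high difference of S100a11 stayed between 1.55 and 1.96 in mouse 1 and between 1.32 and 1.74 in mouse 2. With the number of detected genes removed by a linear fit it was 0.98 and 0.69, so it then fell short of 1 in both mice.

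**Figure D1:**
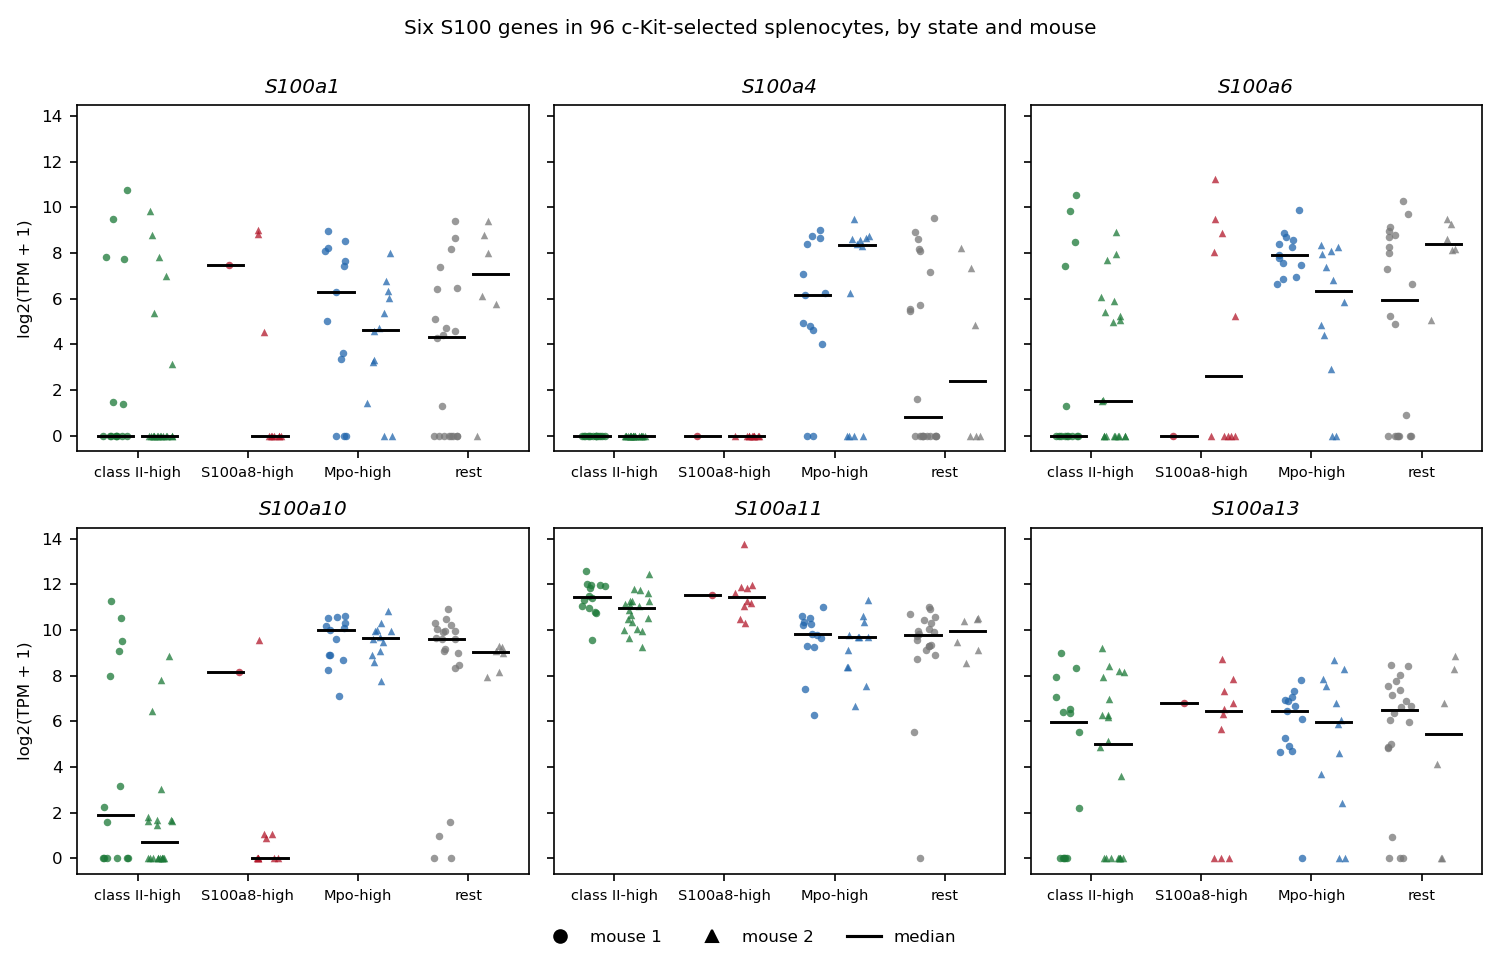
Level of each of the 6 S100 genes as log2(TPM + 1) on the y axis, by cell state on the x axis, with 1 point per cell (circles, mouse 1; triangles, mouse 2) and black bars at the medians. S100a4 is at 0 in every class II-high and S100a8-high cell, S100a10 is high in all 25 Mpo-high cells, and S100a11 is highest in the class II-high and S100a8-high cells.

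S100a10, the annexin A2 partner that brings plasminogen to the cell surface and carries membrane channels, had nearly the reverse pattern. All 25 Mpo-high cells had it, from 136.56 to 1559 TPM in mouse 1 (median 1021) and from 214.2 to 1836 TPM in mouse 2 (median 808). No Mpo-high cell lacked it, and by mean TPM S100a10 was second to S100a11 in this state in both mice. In class II-high cells the median was 2.87 TPM in mouse 1 and 0.88 TPM in mouse 2, and 5 of 14 and 3 of 20 cells reached 10 TPM (35.7%, exact Clopper-Pearson 95% interval 12.8 to 64.9, and 15%, 3.21 to 37.9; the intervals cover the counting of cells only). The means of log2(TPM + 1) were 3.96 ± 4.58 in class II-high and 9.52 ± 1.07 in Mpo-high cells of mouse 1, a difference of -5.57. In mouse 2 they were 1.80 ± 2.73 and 9.52 ± 0.83, a difference of -7.72. With detected genes removed, the differences were -1.56 and -3.58.

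The class II-high cells were divided rather than uniformly low in S100a10. In mouse 1 the 5 cells above 10 TPM had 251.15, 538.22, 733.72, 1472 and 2455 TPM, and the highest of them exceeded every Mpo-high cell; the other 9 lay between 0 and 8.09 TPM. The cells at 2455 and 1472 TPM had only 1939 and 1759 detected genes, and the first had 3.96 TPM of Gapdh. In mouse 2 the 3 cells had 86.19, 221.81 and 468.54 TPM, and the other 17 had at most 7.23 TPM. In these 8 cells H2-Aa was at least 21619 TPM and Xcr1 at least 325.36 TPM. Mpo was at most 13.84 TPM there, and Cd34, a progenitor surface protein, at most 1.96 TPM. Clec9a, another dendritic marker, had medians of 64.56 and 443.53 TPM in these cells of mouse 1 and mouse 2. Its lowest values there were 0 and 1.12 TPM. Class II-high cells under 10 TPM of S100a10 had Clec9a medians of 117.85 and 300.75 TPM. For Kit, the gene of c-Kit, medians were 0.15 and 0.91 TPM in the 8 cells. In the cells under 10 TPM of S100a10 they were 119.24 and 12.78 TPM. These gaps were not tested. The 1 class II-high cell that was also past the Mpo threshold, at 6730 TPM of Mpo, had only 7.23 TPM of S100a10. Because a few cells held most of the transcripts in mouse 1, the difference from Mpo-high cells was -1.20 there on the log2 of the mean TPM, against -4.36 in mouse 2, and -2.80 without the 2 cells under 2000 detected genes, whose removal took the mean from 390.3 to 128.1 TPM.

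Among S100a8-high cells, S100a10 was near 0 in most. In mouse 2, 6 of 10 cells were listed at 0, 3 had 0.87, 1.08 and 1.12 TPM, and 1 had 757.44 TPM. That cell was also past the Mpo threshold, at 20561 TPM of Mpo, as was the S100a8-high cell of mouse 1, with 281.22 TPM of S100a10. Another cell past both thresholds had 15088 TPM of Mpo and S100a10 listed at 0. S100a10 was thus at 10 TPM or more in 2 of the 3 S100a8-high cells past the Mpo threshold and in 0 of the 8 under it, 3 of which had 10 TPM or more of Mpo. The S100a8-high minus Mpo-high difference in mouse 2 was -8.26, and -9.18 without the cell at 757.44 TPM.

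Rest cells mostly had S100a10. In mouse 1 it was listed at 0 in 2 cells, stood at 0.97 and 2.02 TPM in 2 others and ranged from 322.9 to 1965 TPM in the remaining 16, with a median over all 20 of 773 TPM. In mouse 2 the 6 cells had 248.89, 289.77, 509.64, 549.08, 613.27 and 631.61 TPM. All but those 4 cells of mouse 1 lay within or above the range of the Mpo-high cells of their mouse. In mouse 1, 4 rest cells whose mast and basophil markers summed to 1000 TPM or more had 355.9 to 988.25 TPM. The rest minus Mpo-high differences were -1.66 and -0.72, and with detected genes removed they were 0.18 and 0.21.

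**Figure D2:**
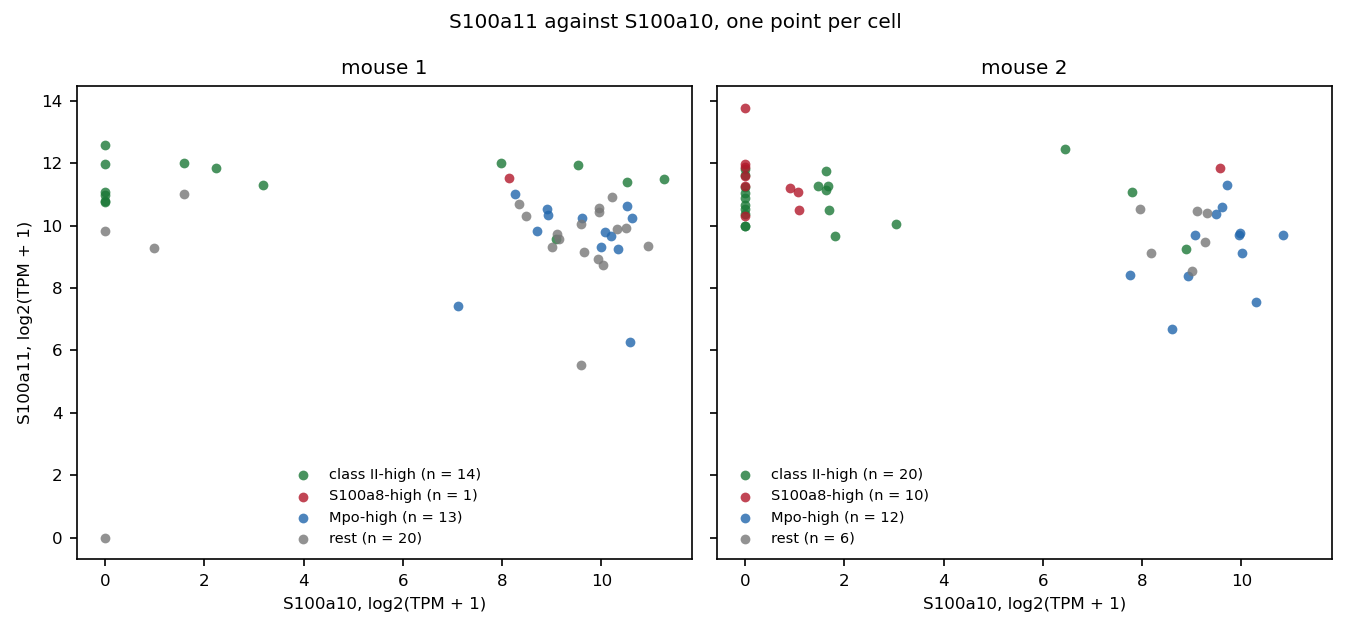
S100a11 (y axis) against S100a10 (x axis), both as log2(TPM + 1), with 1 point per cell coloured by state, mouse 1 on the left and mouse 2 on the right. Mpo-high and most rest cells lie together at high S100a10, while most class II-high and S100a8-high cells stand at the left edge with higher S100a11, and 8 class II-high cells reach the right-hand side.

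S100a4, a protein that binds non-muscle myosin and is known from motile cells, was listed at 0 in all 34 class II-high cells (0 to 10.3%, exact 95% interval) and in all 11 S100a8-high cells (0 to 28.5%). Among Mpo-high cells of mouse 1, 2 were at 0 and the other 11 had 15.34 to 511.95 TPM, with a median over all 13 of 70.45 TPM. Among the 12 of mouse 2, 4 were at 0, 1 had 75.23 TPM and 7 had 315.27 to 713.08 TPM. Both mice therefore had Mpo-high cells with and without the gene, and mouse 2 had a wider gap between them. In rest cells it reached 10 TPM in 9 of 20 and 3 of 6, with a highest value of 730.79 TPM. No fold is given against states listed at 0; on the log2(TPM + 1) scale the class II-high minus Mpo-high difference was -5.59 in mouse 1 and -5.58 in mouse 2.

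S100a4 was close to an all-or-none measurement: of the 65 cells under 10 TPM, 64 were at 0 and 1 had 2.05 TPM. It was also the gene most tied to detected genes in mouse 1. In a comparison chosen after the values were seen, only cells with at most 3864 detected genes, the highest number in a class II-high cell, were kept. S100a4 then reached 10 TPM in 2 of 3 and 2 of 4 Mpo-high cells and in 3 of 13 and 0 of 2 rest cells of mouse 1 and mouse 2. It did so in 0 of 14 and 0 of 20 class II-high cells and in 0 of 7 S100a8-high cells of mouse 2. The kept Mpo-high cells still had at least 3597 and 3474 detected genes, against class II-high medians of 2922 and 2581. The limit thus did not match the states in detected genes, and no conclusion is drawn from it. With the number of detected genes removed, the class II-high minus Mpo-high difference was -2.02 and -1.90. The part of detected-gene number in the zeros was not tested further.

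S100a6, a binding partner of the calcyclin-binding protein Cacybp that is often seen in dividing cells, was present in Mpo-high cells of both mice but at different levels. In mouse 1 all 13 had 97.39 to 947.43 TPM (median 243.48), and in mouse 2 the 12 cells had 0 to 323.7 TPM (median 84.5), 2 of them at 0. Rest cells were the other way round: in mouse 1, 7 of 20 were at 0 (median 68.24, highest 1229 TPM), whereas the 6 of mouse 2 had 32.43, 283.74, 289.35, 389.71, 614.89 and 725.59 TPM. The rest minus Mpo-high difference was thus -3.14 in mouse 1 and 2.73 in mouse 2. In class II-high cells the medians were 0 and 1.89 TPM, with 4 of 14 and 9 of 20 cells at 10 TPM or more and highest values of 1502 and 482.91 TPM. Differences from Mpo-high cells were -5.30 and -2.39. The S100a8-high cells of mouse 2 held 5 cells at 0 and 5 at 36.62, 265.8, 475.16, 721.68 and 2414 TPM, the last being the highest S100a6 value of the series. Their difference from Mpo-high cells was -1.11 by the mean of log2 values and 1.60 by the log2 of the mean TPM, so its direction depends on that choice; without the highest cell the latter was 0.37.

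S100a1, best known as a regulator of calcium handling in heart muscle, was sparse. It reached 10 TPM in 9 of 13 and 7 of 12 Mpo-high cells of mouse 1 and mouse 2, in 11 of 20 and 5 of 6 rest cells, and in 4 of 14 and 5 of 20 class II-high cells. The medians in these states were 78.28 and 24.025 TPM, 19.3 and 160.8 TPM, and 0 and 0 TPM. Class II-high cells that had it could be high, up to 1723 and 910.94 TPM. The class II-high minus Mpo-high difference was therefore -2.41 and -2.05 by the mean of log2 values, but 0.46 and 0.76 by the log2 of the mean TPM. Each of the latter values rested on 1 cell: without the highest class II-high cell they were -0.74 and -0.21. Rest minus Mpo-high differed in sign between the mice, at -1.63 and 2.20.

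S100a13, which takes part in the release of the growth factor Fgf1, had the smallest class II-high minus Mpo-high differences of the 6 genes. It reached 10 TPM in 12 of 13 and 9 of 12 Mpo-high cells, in 16 of 20 and 4 of 6 rest cells, in 8 of 14 and 12 of 20 class II-high cells and in 7 of 10 S100a8-high cells of mouse 2. No cell exceeded 600.25 TPM. The mean TPM of class II-high and Mpo-high cells was 108.5 and 86.7 in mouse 1 and 109.6 and 117.1 in mouse 2. Class II-high minus Mpo-high was -1.51 and -1.08 by the mean of log2 values, 0.32 in mouse 1 by the log2 of the mean TPM (-0.16 without the highest cell), and 0.26 and 0.75 with detected genes removed. The lower mean on the log2 scale thus went with more zeros, 5 of 14 and 8 of 20 class II-high cells against 1 of 13 and 2 of 12 Mpo-high cells, and turned with the processing.

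**Figure D3:**
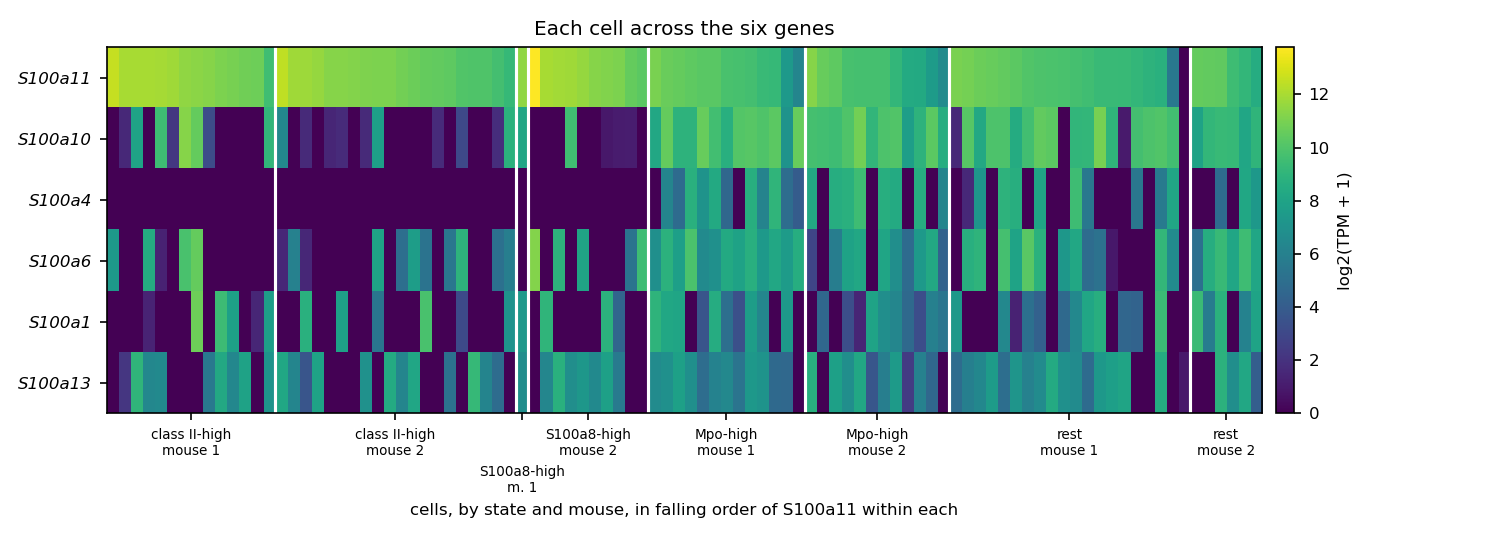
Each column is 1 of 96 cells and each row 1 of the 6 genes, coloured by log2(TPM + 1), with cells grouped by state and mouse and put in falling order of S100a11 within each group. The S100a4 row is empty over the 34 class II-high and 11 S100a8-high cells, and the S100a10 row is filled over all 25 Mpo-high cells.

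The 6 genes together summed to a median of 3892 and 2402 TPM per cell in class II-high cells of mouse 1 and mouse 2, and to 2732 and 2336 TPM in Mpo-high cells. The make-up of the sum differed too. S100a11 gave 76.8% and 87.6% of it in class II-high cells and 84.9% in S100a8-high cells of mouse 2, but 38.4% and 38.2% in Mpo-high cells. S100a10 gave 34.6% and 37.4% in Mpo-high cells against 9.89% and 1.66% in class II-high cells. In rest cells the shares were 41.97% and 42.4% for S100a11 and 32.4% and 20.3% for S100a10. By mean TPM the order in Mpo-high cells was S100a11, S100a10, then S100a6 and S100a4 in mouse 1 and S100a4 and S100a6 in mouse 2, with S100a1 and S100a13 last; the interquartile ranges of neighbours in this order overlapped, except that S100a10 lay above the gene after it in both mice. In class II-high cells S100a11 came first with no such overlap.

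Counts of genes that differed by 1 or more on the log2 scale were read against the 11015 genes whose mean over the 96 cells reached 1 TPM. Class II-high cells were lower than Mpo-high cells in both mice for 5 of the 6 genes, where 27.4% of all genes were, and higher for 1, S100a11, where 3.06% were. With detected genes removed, 2 were lower and 0 higher, while the median of all genes moved from -0.67 and -0.70 to -0.01 and 0.01. By the log2 of the mean TPM, 2 were lower, with S100a1 and, in mouse 1, S100a13 turning positive as given above. No share of all genes is given for these other measures, so their counts cannot be read against a background. By the mean of log2 values, the median difference of the 6 genes was -3.85 in mouse 1 and -2.22 in mouse 2, and lay below that of all genes in both mice. Against rest cells, class II-high cells were lower for 3 of 6 genes (S100a4, S100a6 and S100a10), where 19.3% of all genes were, and higher for 1, S100a11, where 4.11% were. The S100a11 value in mouse 2, 1.06, was 0.82 without 1 cell and 0.39 with detected genes removed. S100a8-high cells of mouse 2 were lower than Mpo-high cells for 4 of 6 genes, where 37.6% of all genes were, and higher for 1, where 6.82% were. Rest cells were lower than Mpo-high cells in both mice for 1 gene, S100a4 (-2.15 and -2.18), where 7.57% of all genes were, and higher for 0, where 1.63% were. That call was lost in mouse 1 by the log2 of the mean TPM (-0.36), with detected genes removed (-0.51) and at a threshold of 2000 TPM (-0.71), and in both mice in the RPKM table (-0.38 and 0.34).

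Neutrophil transcripts took up much of the S100a8-high cells of mouse 2, where the 8 neutrophil markers summed to a median of 432109 TPM, and TPM sums to the same total in every cell. Monocyte markers summed to a median of 19192 TPM there, with 2 of 6 at 10 TPM or more in at least as many cells as not. With TPM rescaled without neutrophil and dendritic markers, the median difference of all genes between S100a8-high and Mpo-high cells moved from -0.59 to -0.47. Of the 6 genes, 3 were then lower and 1 higher. The share of all genes after rescaling is not given, so these counts have no background.

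**Figure D4:**
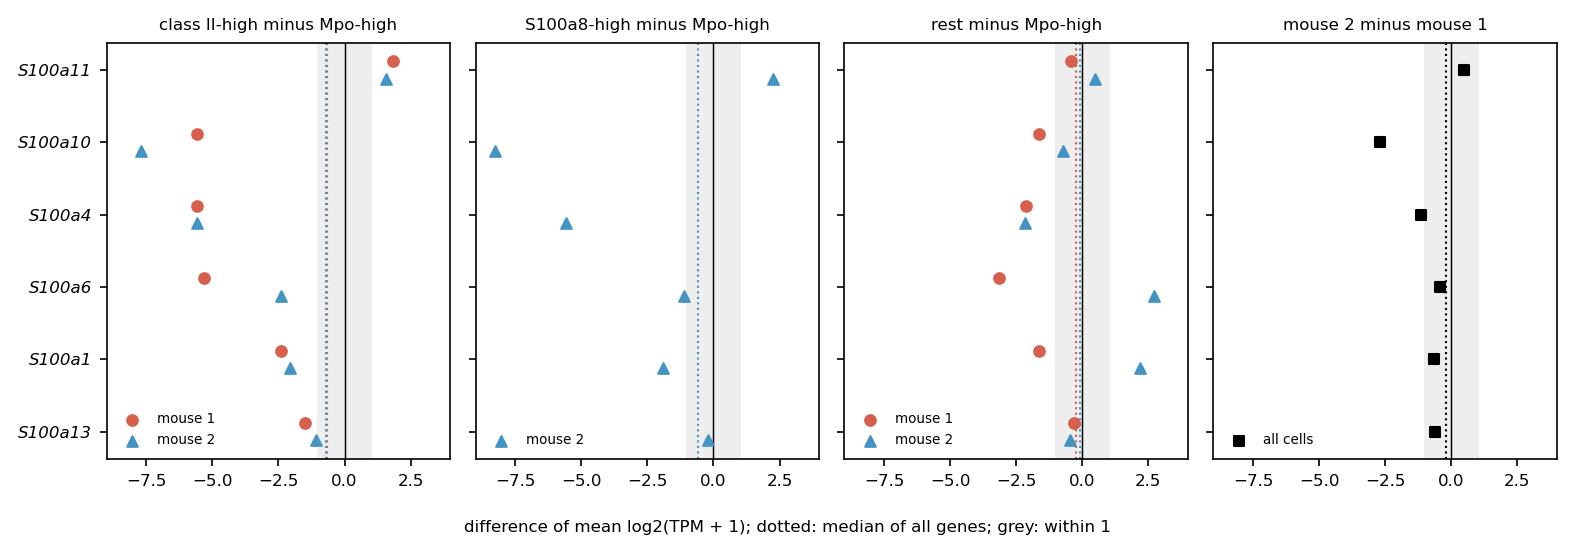
Difference of mean log2(TPM + 1) for each of the 6 genes (x axis) in class II-high, S100a8-high and rest cells minus Mpo-high cells, for each mouse with at least 5 cells of the state, and in all cells of mouse 2 minus mouse 1. Dotted lines mark the median of all genes and the grey band differences under 1; S100a11 lies right of zero and S100a10 and S100a4 far left in the first pair of panels.

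Between the mice, 2 of the 6 genes were lower by 1 or more in mouse 2, where 11.6% of all genes were, and 0 were higher, where 1.59% were. S100a10 differed by -2.69 (mean of log2 values 4.49 ± 4.36 and 7.18 ± 4.08, n = 48 cells each), and S100a4 by -1.13. Mouse 2 also held more class II-high and S100a8-high cells, as counted above. Within Mpo-high cells the mouse difference was -0.00 for S100a10 and -0.01 for S100a4. Within rest cells it was 0.94 for S100a10, opposite in sign to that over all cells, and -0.04 for S100a4. Within class II-high cells it was -2.15 for S100a10, or -0.99 without cells under 2000 detected genes. Without S100a8-high cells the differences over all cells were -1.81 and -0.71, and without 1 of the cells that of S100a4 was -0.99. S100a6 differed by -0.44 over all cells, by -2.58 within Mpo-high cells and by 3.29 within rest cells. S100a11 differed by 0.48 over all cells, by -0.58 within class II-high, by -0.31 within Mpo-high and by 0.60 within rest cells. With 1 animal on each side, these values had no replicate check.

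Across the 48 cells of a mouse, in which state and detected-gene number also vary, S100a4, S100a6 and S100a10 were positively correlated. Spearman's rho was 0.55 in mouse 1 and 0.37 in mouse 2 for S100a4 and S100a6, 0.40 and 0.62 for S100a4 and S100a10, and 0.49 and 0.27 for S100a6 and S100a10. S100a11 ran against S100a4 (-0.40 and -0.46) and S100a10 (-0.33 and -0.51). After a linear fit on detected genes, S100a4 with S100a6 was at 0.57 and 0.40, S100a4 with S100a10 at 0.36 and 0.33, and S100a6 with S100a10 at 0.34 and 0.31. S100a10 with S100a11 was then at -0.37 and -0.25, and S100a4 with S100a11 at -0.22 and -0.15. Without class II-high cells, S100a4 with S100a6 was at 0.56 and 0.22, S100a4 with S100a10 at 0.24 and 0.60, S100a6 with S100a10 at 0.26 and 0.04, S100a4 with S100a11 at -0.02 and -0.45, and S100a10 with S100a11 at -0.10 and -0.46. Within class II-high cells of both mice, S100a10 with S100a11 was at -0.03. At 10 TPM, all 31 cells with S100a4 also had S100a10, and 29 of them had S100a6. All 31 were among the 51 Mpo-high and rest cells, of which 47 had S100a10 and 40 had S100a6 at 10 TPM. S100a1 and S100a13, whose start regions overlap, gave 0.25 and -0.25; 34 cells had both at 10 TPM, 11 had S100a1 alone, 35 had S100a13 alone and 16 had neither.

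The genes most like each of the 6 were sought among the 2050 genes detected in 24 cells or more of each mouse, by the lower of the Spearman correlations of the mice. For S100a10 they were Prtn3, the proteinase 3 gene of azurophilic granules (0.49), Spn, coding for CD43 (0.46), Nkg7 (0.45), Myb, a progenitor transcription factor (0.44), and the ribosomal protein gene Rps7 (0.44). For S100a11 they were Actb, coding for beta-actin (0.51), Cd52 (0.48), the actin-binding thymosin gene Tmsb4x (0.43), Cyba, an NADPH oxidase subunit (0.39), and Tyrobp, a signalling adaptor (0.35). Prtn3 had a mean of 1945 TPM in Mpo-high and 1.24 TPM in class II-high cells, and Actb 9572 and 40296 TPM. For S100a6 the first was Cd34 (0.46), followed by Golt1b (0.38), Ifitm1 (0.37), Mndal (0.37) and Ube2e1 (0.36). Those of S100a1 were Mgst2, Myb, Sec11c, Kpna2 and Runx1 (0.34 to 0.38), and those of S100a13 were Esd, Vdac1, Mtmr2, Tmem14c and Rab1 (0.30 to 0.32). All were the highest of 2050 values over cells of mixed states, with neither state nor detected genes removed. The spread of these correlations over all genes is not given. The lists therefore rank genes and do not show that a likeness was unusual. S100a4 was detected in too few cells, 21 in mouse 1 and 11 in mouse 2, to be compared in this way.

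The known partners of these proteins did not follow them in a fixed way. Anxa2, which codes for the partner of S100a10, had a mean of 1796 and 1032 TPM in class II-high cells and 1512 and 817 TPM in Mpo-high cells, differences of 0.23 and -0.12, and its rho with S100a10 was 0.12 and -0.07. The states thus differed by less than 1 in Anxa2, far less than in S100a10. Ahnak, a large scaffold protein that binds the S100a10 complex, was 1.66 and 1.26 higher in class II-high cells. Anxa1, the partner of S100a11, was 1.44 and 0.95 higher in class II-high cells and 4.85 higher in S100a8-high than in Mpo-high cells of mouse 2, with a rho with S100a11 of 0.31 and 0.32. Cacybp, the partner of S100a6, had class II-high minus Mpo-high differences of -2.74 and -4.38, with a rho with S100a6 of 0.02 and 0.06. Myh9, the myosin heavy chain bound by S100a4, differed by 0.26 and 0.53 and was at 10 TPM in all class II-high and Mpo-high cells, S100a4 being at 0 in the former. Anxa2, Anxa1 and Myh9 were named after their values were seen.

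The wider lists gave counts in the class II-high minus Mpo-high comparison that were set beside the 3.06% of all genes higher and 27.4% lower in both mice. Of 9 measured annexins, 1 was higher, Anxa6 (3.73 and 3.97), and 1 lower, Anxa3 (-5.69 and -6.14), with medians of 0.23 and -0.26. Of 14 measured S100 binding partners and receptors, 2 were higher and 4 lower, among them Bsg, coding for basigin (-3.25 and -3.26), the co-chaperone gene Stip1 (-4.16 and -1.98) and Trp53, coding for p53 (-1.53 and -3.94), with Ahnak and the adhesion gene Alcam (1.41 and 1.67) higher. The median was 0.10 and -0.40. Of 19 other EF-hand genes, 2 were higher, among them Efhd2 (4.95 and 3.77), and 7 were lower, including Calu (-3.70 and -4.04), Sdf4 (-3.22 and -2.83) and Pdcd6 (-3.12 and -2.69), with medians of -1.16 and -0.95. The list of genes known from motile leukocytes had 6 of 16 higher, led by Cd52 (6.91 and 6.99), the galectin gene Lgals3 (5.48 and 5.81), Crip1 (3.26 and 4.12) and Tmsb4x (3.10 and 3.35). In that list 2 were lower, one of them the galectin gene Lgals1 (-3.84 and -4.02), and its median was 0.82 and 0.80.

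Among the 12 measured genes listed by name as neighbours of the S100 genes on chromosome 3, 2 were lower and 0 were higher. The lower ones were Ilf2 (-4.44 and -5.49) and Snapin (-3.32 and -2.55), and the medians were -0.29 and -0.09. Their distances to each member are not given, and S100a11 lies 2906081 bases beyond S100a6. The list is therefore not a survey of the surroundings of each member. Of 11 other S100 genes only 3 reached a mean of 1 TPM, and 0 of these differed by 1 or more in the same direction in both mice. S100a8 lay at 0 to 133.14 TPM in class II-high cells and at 0 to 49.47 TPM in Mpo-high cells.

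The deposited RPKM table, made separately by the authors, held all 6 genes but at a floor value in most cells. S100a11 was above its floor in 21 of 96 cells, S100a10 in 17, S100a6 and S100a13 in 7 each, S100a4 in 6 and S100a1 in 1. The cells above the floor for S100a4 were 4 Mpo-high and 2 rest cells and no class II-high or S100a8-high cell. For S100a10 they were 10 Mpo-high, 5 rest and 2 class II-high cells, and for S100a11 they were 11 class II-high, 4 S100a8-high, 4 Mpo-high and 2 rest cells. All of these cells had 10 TPM or more of the same gene in the TPM table, but the converse did not hold. Of the cells at 10 TPM or more, those above the RPKM floor were 21 of 95 for S100a11, 17 of 57 for S100a10 and 6 of 31 for S100a4. They were 7 of 58 for S100a6, 7 of 69 for S100a13 and 1 of 45 for S100a1.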

How the data were processed

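Single c-Kit-selected splenocytes were captured on a Fluidigm C1 chip, amplified with SMARTer chemistry and made into Nextera XT libraries, per the labels' protocols. The deposited TPM table (96 columns, 23955 genes) was made by the authors with RSEM, and a deposited RPKM table of 9310 genes was made by the authors separately. TopHat2, RSEM and Bowtie2 and the builds mm10 and mm9 are named in the submitters' processing notes; versions, strandedness and which build belongs to which table are not given in the sources used here. All columns were used (0 unused).

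Levels were compared as log2(TPM + 1), with means and SDs over cells, at a state threshold of 1000 TPM on H2-Aa, then S100a8, then Mpo. A difference of 1 or more, in the same direction in both mice where both had cells, was counted, over the 11015 genes whose mean reached 1 TPM. A fold on this scale understates the change of low genes. Shares of cells at 10 TPM or more have Clopper-Pearson 95% intervals (exact) for counting error among cells alone. With 1 animal per side no test was made, and cells are not replicates. TPM keeps no read depth, so detected genes were given in its place.

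Besides the 6 genes, S100a8 and S100a9, the genes named were up to 5 per partner list, with a mean of 10 TPM or more and a difference of 1 or more in both mice, by the smaller difference, and the 5 genes most like each member. A gene that met this rule is not reported here. The members and all lists were chosen with earlier results of these data known. Alternatives were pseudocounts of 0.1 and 10, medians, the log2 of the mean TPM, rescaled TPM, removal of detected-gene number, thresholds of 500 and 2000 TPM, cells under 2000 detected genes left out, cells past more than 1 threshold left out, the RPKM table, and each cell left out in turn. The last, the mouse difference without S100a8-high cells, the limit on detected genes used for S100a4 and means without the highest cell or the cells of fewest detected genes were chosen after seeing the data. Promoter windows came from RefSeq on GRCm38.p6. Python 3.11.15, numpy 2.4.6, pandas 2.3.3, scipy 1.17.1 and matplotlib 3.10.9 were used. A difference of means was tried on simulated, normally spread values without mice, states or the many zeros of these genes. That check does not cover the steps behind the results.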

Additional observations from a re-analysis of the deposited data

Results flagged for a closer look

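Of 11 groups of 4 to 10 cells examined, 3 held 1 cell that stood apart by Dixon's 95% criterion on log2(TPM + 1). Each was set against the other cells of its state and mouse. The criterion assumes normally spread values, which values with many zeros are not. It served only to pick cells to describe, and no rate is read from the count. In rest cells of mouse 2 the lowest S100a6 value was 32.43 TPM and the next 283.74 TPM (n = 6). In S100a8-high cells of mouse 2 the highest S100a10 value was 757.44 TPM and the next 1.12 TPM (n = 10), and that cell also had 20561 TPM of Mpo. The highest S100a11 value in the same state and mouse was 14136 TPM and the next 4037 TPM (n = 10). That cell also had the highest S100a6 value, 2414 TPM, and 201252 TPM of S100a8.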

How the results depend on the processing

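Of 810 recomputed differences of single genes, 749 were counted as moved by less than the spread over cells, 45 as moved further and 16 as changed in sign. All 16 had stood at 1 or more in size. Sign changes of smaller differences, such as rest minus Mpo-high for S100a10 in mouse 2 with detected genes removed, are not among them. The spread was wide, with an SD of 4.58 for S100a10 in class II-high cells of mouse 1. Large shifts could thus fall among the 749, which is no measure of robustness. Where no value below shows it, the cause was not tested. By the log2 of the mean TPM, class II-high minus Mpo-high was 0.46 and 0.76 for S100a1 and 0.32 for S100a13 in mouse 1, and S100a8-high minus Mpo-high was 0.94 for S100a1 and 1.60 for S100a6. With detected genes removed, class II-high minus Mpo-high was 0.26 and 0.75 for S100a13 and 0.17 for S100a1 in mouse 2, rest minus Mpo-high was 0.18 for S100a10 in mouse 1, and S100a8-high minus Mpo-high was 0.43 for S100a6. In the RPKM table, which holds most cells at a floor, class II-high minus Mpo-high was 0.072 for S100a1 in mouse 1 and 0.24 for S100a13 in mouse 2, class II-high minus rest was 0.018 for S100a6 in mouse 1, rest minus Mpo-high in mouse 2 was 0.34 for S100a4 and -0.081 for S100a6, and the mouse difference within Mpo-high cells was 0.046 for S100a6. The 5 genes lower in class II-high than Mpo-high cells became 3 with a pseudocount of 10, 2 by the log2 of the mean, 2 with detected genes removed and 0 in the RPKM table; the 1 higher became 0 with detected genes removed and in the RPKM table. Against rest cells, the 3 lower became 1 by the log2 of the mean and 0 in the RPKM table, and the 1 higher became 0 with detected genes removed and in the RPKM table and was 0 to 1 when each cell was left out. The 1 gene lower in rest than Mpo-high cells became 0 by the log2 of the mean, with detected genes removed, in the RPKM table and at a threshold of 2000 TPM. For S100a8-high minus Mpo-high, the 4 lower became 2 with a pseudocount of 10, by the log2 of the mean and with detected genes removed, and the 1 higher became 2 by the latter pair; both counts were 0 in the RPKM table. The 2 genes lower in mouse 2 became 1 with a pseudocount of 10, by the log2 of the mean, with detected genes removed and without S100a8-high cells, 0 in the RPKM table, and 1 to 2 when each cell was left out. Shares of all genes under these alternatives are not given, so the counts show only how far the calls moved. No paired analysis was possible because each mouse is 1 animal and its cells carry no number that links them to cells of the other. Depth limits what a TPM of 0 means: at unknown depth, a gene listed at 0 was not detected, which does not show that it is absent.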
